A study of Mus musculus with 6 samples.

Results

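The Tcl1 cluster is a group of 6 neighbouring genes on mouse chromosome 12, taken here by their symbols in the deposited table: Tcl1, Tcl1b1, Tcl1b2, Tcl1b3, Tcl1b4 and Tcl1b5. All 6 were found among the 25353 genes of the table, and all 6 passed the filter on low values. RNA had been sequenced from pools of 5 oocytes at the germinal vesicle stage, arrested in prophase of meiosis, in 3 wild-type (WT) and 3 knockout (KO) libraries from C57BL/6J mice. The series title names mitofusin 2 and the design text names Mfn2-/- mice aged 8 weeks, 3 to a group, whereas the genotype field of the KO libraries and the collection protocol read Mfn1-/-, and the age field of every library reads P1. The protocol describes the oocytes as enclosed in secondary follicles and freed from granulosa cells by enzyme digestion. Both genes encode mitofusins, GTPases that fuse mitochondria. No allele or Cre driver is named in the sources used here, and nothing in the labels ties a pool to its own mouse, so p-values measure the spread between these pools.

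TCL1 proteins are small proteins that bind the kinase AKT and promote its activation, and human TCL1A was found as an oncogene of T-cell leukaemia. In the mouse, Tcl1 stands beside a set of tandem copies named Tcl1b, and transcripts of the family are known from oocytes, early embryos and, for Tcl1, also from embryonic stem cells and lymphoid cells. Loss of Tcl1 in mouse eggs is known to impair the first cleavages of the embryo, so Tcl1 is counted among the maternal-effect genes.

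The knockout and the cell type were checked first. Mfn2 had 25.5, 38.1 and 32.3 normalized read counts in WT and 5.25, 5.28 and 4.50 in KO, which are 5 reads in each KO library. Its log2 fold change of KO over WT was -2.44 (limma, SE 0.38, adjusted p = 0.00487), while Mfn1 had 340 ± 36.3 in WT against 386 ± 10.3 in KO (n = 3 each, SD; limma adjusted p = 0.482). Mfn1 was not called, though its KO libraries were all above its WT libraries, and groups did not overlap in 23.2% of tested genes. Of the mitofusins that the labels name, Mfn2 was thus the one with lower RNA in KO. Libraries held 6450191 to 7992598 reads assigned to genes. The 10 oocyte markers, among them Zp3, Gdf9 and Dppa3, summed to 19570 to 23099 CPM (reads scaled to the total of the library) in WT and 15744 to 21401 in KO, and KO replicate 1 was the lowest. Granulosa markers summed to 89.7 to 190.8 CPM in WT, with the highest sum in WT replicate 1, and to 75.2 to 94.9 in KO. Markers of theca and stroma summed to 2.25 to 10.2 in WT, again highest in WT replicate 1, and to 1.05 to 1.66 in KO. In WT and KO, endothelial markers summed to 27.1 to 33.3 and 24.3 to 37.4, and immune markers to 127 to 151 and 128 to 143. The part of these differences in the results was not tested.

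The 6 genes occupy 76.78 kb of chromosome 12 in GRCm38, from 105146014 to 105222793, and the annotation places no other gene between them. On the plus strand lie Tcl1b2 (105146014 to 105155225), Tcl1b1 (105159690 to 105166625), Tcl1b5 (105176344 to 105181145), Tcl1b3 (105191043 to 105195612) and Tcl1b4 (105201957 to 105206993). Tcl1 (105216750 to 105222793) follows on the minus strand, so that it points toward the Tcl1b array. The first annotated transcript of each gene has 4 exons and codes for 116 to 122 amino acids, the stop codon left out. Coding sequences were 74.3% to 88.3% identical within the 10 pairs of Tcl1b genes and 59.1% to 65.7% identical between Tcl1 and the Tcl1b genes, over aligned bases.

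**Figure D1:**
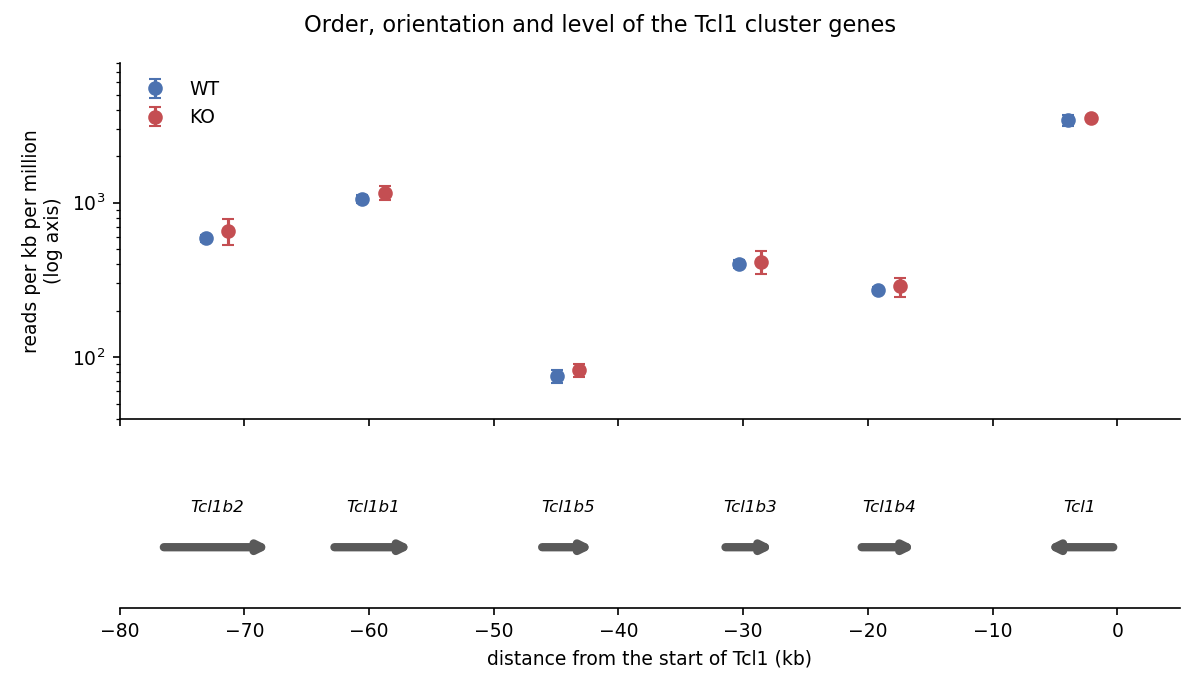
Upper panel, RPKM over the longest transcript (log axis) as the mean of 3 WT (blue) or 3 KO (red) libraries, with SD bars; points are shifted sideways to keep the groups apart. Lower panel, position and direction of the 6 genes against distance from the start of Tcl1 in kb. Tcl1 is the highest, Tcl1b5 in the middle of the array is the lowest, and WT and KO lie close together for each gene.

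Sequence around the annotated starts also differed between Tcl1 and its copies. Promoter windows from RefSeq (GRCm38.p6), 250 bases before to 50 after each start that RefSeq annotates, were found for all 6 genes. For Tcl1b2 and Tcl1b4 the RefSeq start lies 1005 and 438 bases inside the gene as the deposited table places it, so their whole windows do too. For the other 4 genes it lies 0 to 56 bases inside. Over aligned bases, the windows of the Tcl1b genes were 90.9% to 98.6% identical to each other, against 54.8% to 64.8% between Tcl1 and the Tcl1b genes. Of the 300 bases, 206 to 287 aligned within pairs of Tcl1b genes and 211 to 259 between Tcl1 and a Tcl1b gene. Gaps, also at the ends, were left out. Tcl1 is shown with Tcl1b1 and Tcl1b5, the most and the least abundant copies, and with Tcl1b2, whose level differed most between libraries. Each is written 5′ to 3′ on the strand of the gene, at chr12:105222688-105222987 (minus strand) for Tcl1, chr12:105159454-105159753 for Tcl1b1, chr12:105146769-105147068 for Tcl1b2 and chr12:105176094-105176393 for Tcl1b5 (plus strand). Capitals mark the longest runs that all 5 Tcl1b windows share, of which there are 2 of equal length, and in Tcl1 the copies of the GC box GGGCGG, read from the other strand.
Tcl1: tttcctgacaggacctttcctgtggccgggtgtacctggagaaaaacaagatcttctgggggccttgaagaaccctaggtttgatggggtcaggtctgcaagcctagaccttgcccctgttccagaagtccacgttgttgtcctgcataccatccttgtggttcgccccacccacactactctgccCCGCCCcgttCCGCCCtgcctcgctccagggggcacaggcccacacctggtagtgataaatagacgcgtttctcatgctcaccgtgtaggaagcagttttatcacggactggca
Tcl1b1: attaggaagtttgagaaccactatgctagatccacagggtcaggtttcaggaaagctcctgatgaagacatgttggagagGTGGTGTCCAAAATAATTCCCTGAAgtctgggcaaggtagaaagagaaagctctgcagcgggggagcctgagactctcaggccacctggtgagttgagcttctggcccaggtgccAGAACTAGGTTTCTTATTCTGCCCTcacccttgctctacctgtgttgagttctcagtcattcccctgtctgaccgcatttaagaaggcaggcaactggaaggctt
Tcl1b2: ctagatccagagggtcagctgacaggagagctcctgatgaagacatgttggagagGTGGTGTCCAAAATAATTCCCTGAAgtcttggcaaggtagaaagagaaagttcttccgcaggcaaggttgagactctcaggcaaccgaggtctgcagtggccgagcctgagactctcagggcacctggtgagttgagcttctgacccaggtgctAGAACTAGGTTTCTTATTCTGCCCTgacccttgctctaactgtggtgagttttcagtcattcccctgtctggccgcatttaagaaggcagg
Tcl1b5: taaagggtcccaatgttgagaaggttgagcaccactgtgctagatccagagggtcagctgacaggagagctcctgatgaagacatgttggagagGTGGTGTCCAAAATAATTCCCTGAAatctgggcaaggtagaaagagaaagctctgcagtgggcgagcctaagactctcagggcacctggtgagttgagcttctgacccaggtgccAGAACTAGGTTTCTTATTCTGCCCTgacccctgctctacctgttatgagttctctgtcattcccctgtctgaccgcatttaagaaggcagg

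The first shared run is GTGGTGTCCAAAATAATTCCCTGAA, with 25 bases. The other, nearer to the start, is AGAACTAGGTTTCTTATTCTGCCCT, of the same length. Each was present in 5 of 32851 promoter windows of the same length, the 5 Tcl1b windows themselves. Motifs were searched on both strands. GGGCGG occurred 2 times in the Tcl1 window, in none of the Tcl1b windows and in 35.7% of all windows. The E-box CANNTG, the type of site bound by the oocyte factor FIGLA with its partners, occurred in the windows of all 6 genes and in 72.3% of all windows. ATTTAA lay in the windows of Tcl1b1, Tcl1b2, Tcl1b3 and Tcl1b5, after the RefSeq start, and in 13.2% of all windows. The windows begin and end at different points of the copies: that of Tcl1b3 begins at the first shared run, and that of Tcl1b4 ends just where the other copies hold this motif. TATAAA (13.6% of all windows), TAATTG (8.00%) and the octamer ATGCAAAT (1.74%) matched in none of the 6. These motifs were chosen after the sequences were seen, and they are matches of letters only.

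Tcl1 was among the most abundant messages of the oocyte. Per length, as RPKM over the longest annotated transcript, its level was 3401 ± 288 in WT against 3541 ± 85.6 in KO (n = 3 each, SD). By its mean over the 6 libraries it was at rank 7 of 24217 genes with a known length, where the median detected gene had a level of 0.795. Tcl1b1 followed at an RPKM of 1055 ± 64.5 in WT and 1158 ± 125 in KO, and at rank 55. Tcl1b2 stood at 588 ± 32.6 and 659 ± 129, at rank 113.

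Lower in the order, Tcl1b3 had a level per length of 402 ± 23.6 RPKM in WT against 415 ± 72.2 in KO (n = 3 each, SD), at rank 195. Tcl1b4 had 272 ± 12.04 and 287 ± 40.5, at rank 328. Tcl1b5 had 75.0 ± 7.05 and 82.5 ± 8.06, at rank 1267. The order Tcl1, Tcl1b1, Tcl1b2, Tcl1b3, Tcl1b4, Tcl1b5 held within each of the 6 libraries. The step from Tcl1b3 to Tcl1b4 depended on the transcript taken as the length: with the first annotated transcript of each gene, which is 1031 rather than 1465 bases for Tcl1b4, the WT levels were 402 ± 23.6 and 387 ± 17.1. These did not differ beyond their spread, and the other steps of the order remained.

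The cluster took 0.686% to 0.768% of the assigned reads in WT libraries and 0.762% to 0.815% in KO libraries. Tcl1 alone gave 62.7%, 63.6% and 66.7% of the cluster's reads in WT and 59.1%, 66.0% and 65.3% in KO. The lowest share of Tcl1 was that of KO replicate 1, and the groups overlapped. Among the Tcl1b reads, Tcl1b1 gave 40.6% to 43.3%, Tcl1b2 23.7% to 26.2%, Tcl1b3 14.9% to 16.0%, Tcl1b4 14.5% to 15.3% and Tcl1b5 2.78% to 3.22% over the 6 libraries. The share of Tcl1b3 was 15.8%, 16.0% and 16.0% in WT and 15.6%, 14.9% and 14.9% in KO, and that of Tcl1b4 was 15.3%, 15.0% and 15.2% in WT and 14.6%, 14.9% and 14.5% in KO. These 2 shares did not overlap between groups, were picked after the values were seen and were not tested. For the normalized counts of single genes, a different measure, the groups did not overlap in 23.2% of tested genes. By that measure the groups did overlap for Tcl1b3 and Tcl1b4.

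The comparison of KO with WT asks how the transcriptome of the oocyte differs when a mitofusin is lost, here with Mfn2 as the one lower in KO. For Tcl1, the normalized read counts were 30791, 34601 and 37486 in WT and 33332, 35396 and 34066 in KO. The lowest and the highest value were both WT libraries, and the 3 KO libraries lay between them. Its log2 fold change was 0.0031 (SE 0.11, 95% interval -0.23 to 0.24, limma adjusted p = 0.993). In pools of oocytes, fewer cells and less RNA per cell cannot be told apart, and values are relative to the whole library.

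Tcl1b1, the most abundant copy, had normalized read counts of 7767, 8286 and 7645 in WT and 9358, 7813 and 7824 in KO. KO replicate 1 was above every other library, and the other KO libraries lay within the WT range. The log2 fold change was 0.07 (SE 0.10, 95% interval -0.15 to 0.29, limma adjusted p = 0.78). For Tcl1b2, values of 4328, 4783 and 4642 in WT stood against 6042, 4382 and 4386 in KO. Again KO replicate 1 stood alone above the rest, with a log2 fold change for the groups of 0.09 (SE 0.12, 95% interval -0.17 to 0.35, limma adjusted p = 0.765).

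The pair Tcl1b3 and Tcl1b4 had a different arrangement. Tcl1b3 had normalized read counts of 2895, 3177 and 2997 in WT and 3603, 2712 and 2695 in KO. KO replicate 1 was above all WT libraries and the other KO libraries were below all of them, and the log2 fold change was -0.02 (SE 0.12, 95% interval -0.27 to 0.23, limma adjusted p = 0.949). Tcl1b4 had 2799, 2972 and 2852 in WT and 3376, 2712 and 2629 in KO. It had the same order of KO libraries around the WT range, with a log2 fold change of 0.01 (SE 0.11, 95% interval -0.23 to 0.24, limma adjusted p = 0.986).

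Tcl1b5, the least abundant copy, had normalized read counts of 508, 607 and 595 in WT and 669, 586 and 553 in KO. KO replicate 1 was the highest and WT replicate 1 the lowest, and the groups overlapped. The log2 fold change was 0.08 (SE 0.12, 95% interval -0.18 to 0.34, limma adjusted p = 0.791).

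**Figure D2:**
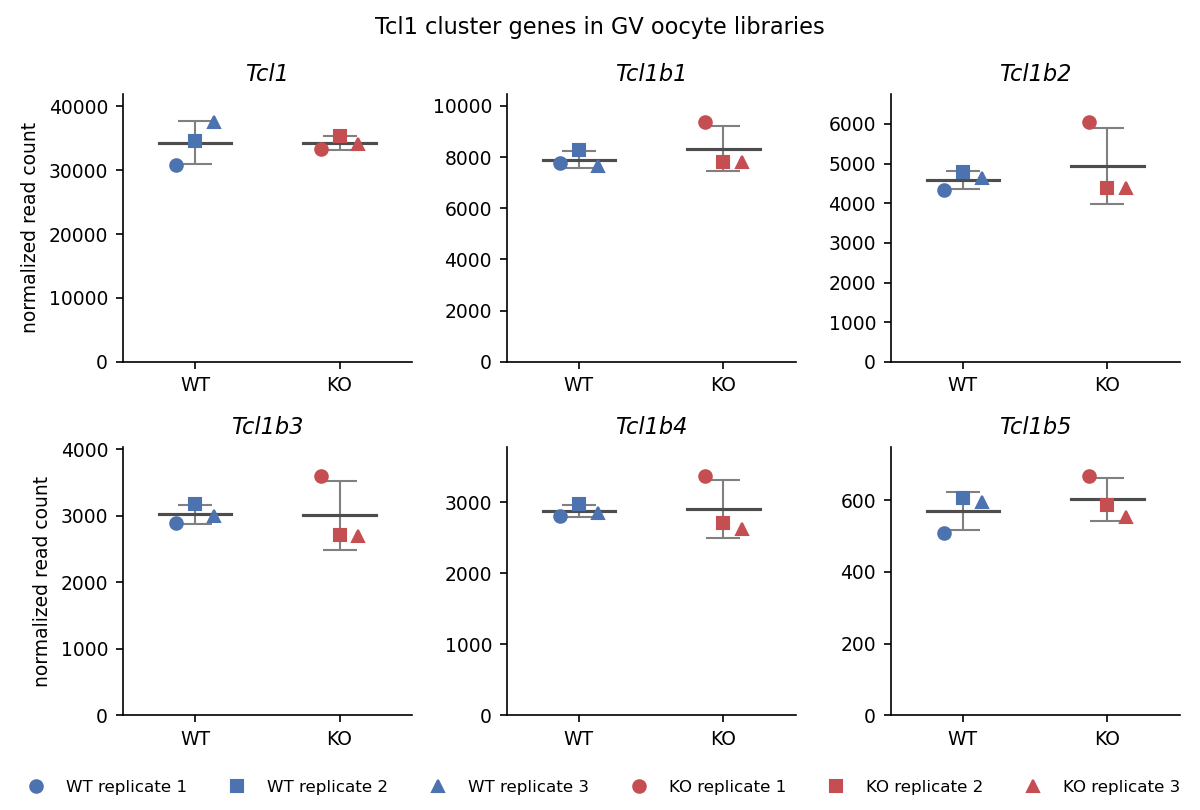
Normalized read counts of the 6 genes, 1 panel each with an axis from 0, for 3 WT (blue) and 3 KO (red) libraries; the marker shape gives the replicate, the long bar the group mean and the error bar the SD. In each Tcl1b panel the circle of KO replicate 1 is the highest point, for Tcl1b2 at 6042 against 4328 to 4783 in the other libraries, while for Tcl1 it lies among them.

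For the cluster as a whole, no gene passed the test between KO and WT. Limma called 0 of 6, and 0 of 6 had an unadjusted p under 0.05, which 18% of all tested genes had. Over all 18762 tested genes, limma called 3.28%, with 351 (1.87%) higher and 264 (1.41%) lower in KO, and among the 2839 genes with a mean of at least 500 normalized counts it called 6.55%. Scaled to library totals the calls were 488 higher and 176 lower, and after removal of trends with GC content and transcript length they were 293 higher and 341 lower. EdgeR on the recovered reads called 0 of 6 (6.03% of all genes it tested), and DESeq2 also called 0 of 6. DESeq2 called 3.41% of all 25353 genes, a total that includes genes to which it gave no adjusted p. The groups overlapped in all 6 genes, against the 23.2% of tested genes in which they did not. The 95% intervals for the ratio of KO to WT, over the 6 genes, lay between 0.829 and 1.27.

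**Figure D3:**
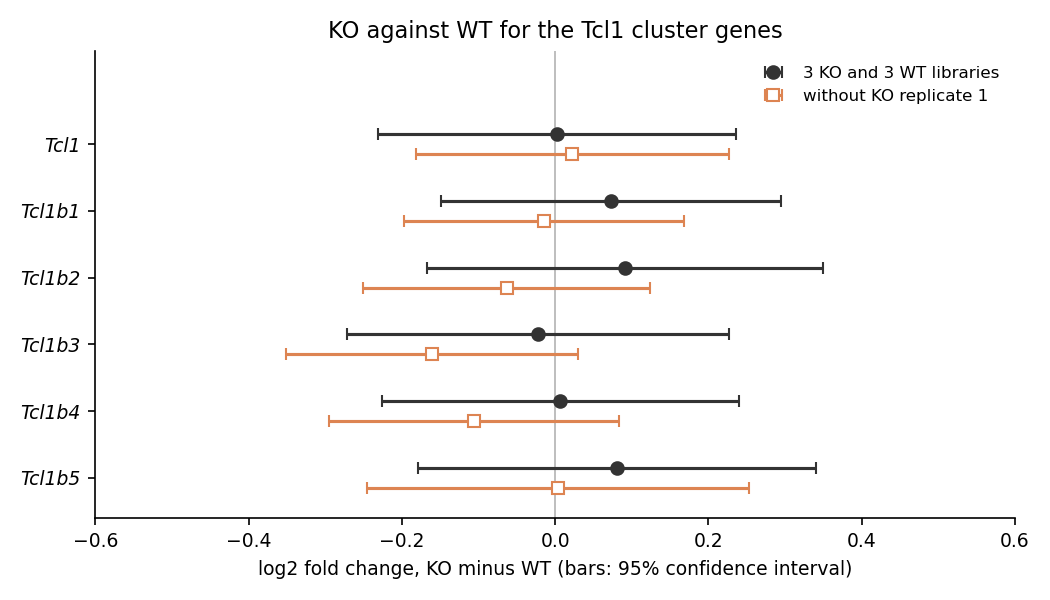
Log2 fold change of KO minus WT for the 6 genes with its 95% confidence interval from limma, with all 6 libraries (black circles) and without KO replicate 1 (orange squares). Each interval includes 0. Without KO replicate 1 the estimates of the Tcl1b genes move to lower values, the lowest being -0.16 for Tcl1b3.

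Without KO replicate 1 the log2 fold changes were 0.02 for Tcl1, -0.01 for Tcl1b1, -0.06 for Tcl1b2, -0.16 for Tcl1b3, -0.11 for Tcl1b4 and 0.0033 for Tcl1b5. The limma adjusted p-values of these 6 ran from 0.353 for Tcl1b3 to 0.993 for Tcl1b5. For Tcl1b3 the 95% interval was then -0.35 to 0.03, from 3 WT and 2 KO libraries.

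What the copies shared was a high value in 1 library. KO replicate 1 stood above the mean of the other 5 libraries by a ratio of 1.34 for Tcl1b2, 1.24 for Tcl1b3, 1.21 for Tcl1b4, 1.19 for Tcl1b1 and 1.17 for Tcl1b5. For Tcl1 the ratio was 0.967. KO replicate 1 was the highest library for 5 of 5 Tcl1b genes, as it was for 26.0% of the 2839 genes with a mean of at least 500 normalized counts, and it was the lowest library for 30.5% of those genes. A ratio above that of Tcl1b2 was found in 3.84% of those genes, and above that of Tcl1b5 in 17.1%. These values describe 1 library, which has no replicate of its own, and they were picked after the values were seen.

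The excess in KO replicate 1 was found under all 3 scalings tried, chosen after seeing the data. Scaled to library totals, the ratio for the sum of the 5 Tcl1b genes was 1.27, against 1.24 with the size factors of the authors, and after removal of a cubic trend with GC content and length it was 1.29. For Tcl1 the ratio was 0.992 on library totals and 1.03 after removal of that trend, so its side of 1 depended on the scaling. The summed oocyte markers were lowest in this same library, as given above. Whether that has a part in these ratios was not tested.

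**Figure D4:**
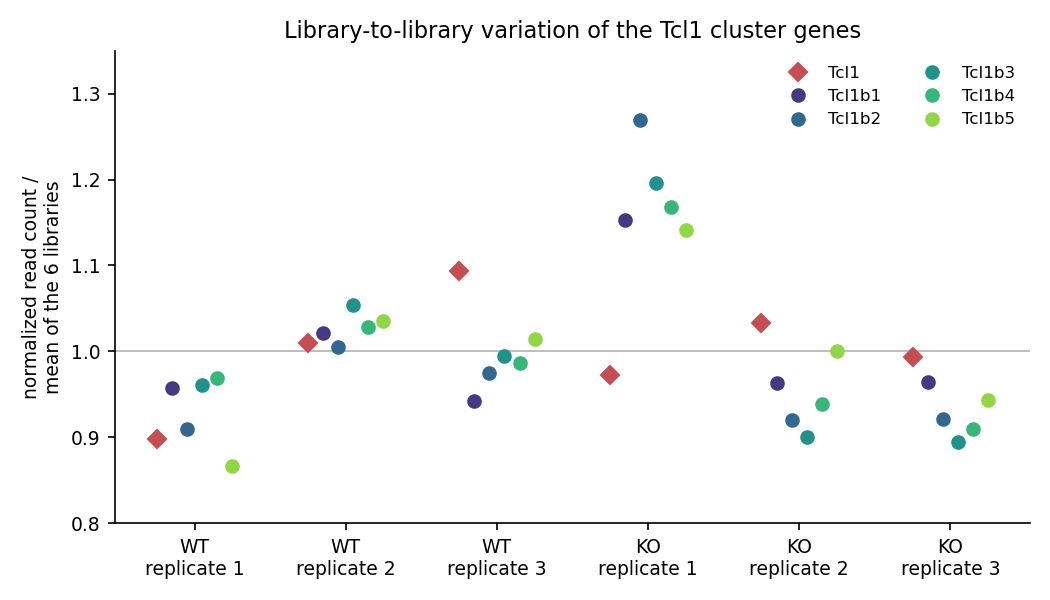
Normalized read count of each gene in each library, divided by the gene's mean over the 6 libraries; the red diamond is Tcl1 and circles are the Tcl1b genes. The 5 circles of KO replicate 1 lie above all other circles while the diamond there is below 1, and the diamonds of WT replicates 1 and 3 are the lowest and highest of Tcl1.

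Across the 6 libraries the coefficient of variation was 6.49% for Tcl1, 7.97% for Tcl1b1, 9.19% for Tcl1b4, 9.22% for Tcl1b5, 11.3% for Tcl1b3 and 13.7% for Tcl1b2, where the median over the 2839 genes was 11.2%. Without KO replicate 1 it was 3.11% for Tcl1b1 and 4.39% for Tcl1b2, below the 7.06% of Tcl1. The reads of Tcl1b genes relative to Tcl1 gave a ratio of 0.594, 0.573 and 0.4997 in WT and 0.692, 0.514 and 0.531 in KO. The value of KO replicate 1 was the highest, and that of WT replicate 3, in which Tcl1 itself was highest, was the lowest.

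Parts of the copies differ by at most 1 base over the 75 bases of a read. Identical stretches were not counted apart from those with 1 mismatch. Of 75-base windows taken every 25 bases along the longest transcript, 39.0% in Tcl1b2, 35.9% in Tcl1b3, 32.5% in Tcl1b5, 17.9% in Tcl1b1 and 3.57% in Tcl1b4 matched another gene of the array with at most 1 mismatch, and 0 of 53 windows in Tcl1 did. How the authors counted reads that match several genes is not given in the sources used here, so the values of single copies other than Tcl1b4 are uncertain to that extent. The sum of the 5 Tcl1b genes does not depend on how such reads are divided among the copies. If they were dropped, the sum would lack them too. It was 18298, 19826 and 18731 normalized counts in WT and 23049, 18206 and 18086 in KO, again with KO replicate 1 alone above the rest. Tcl1b4, with few shared windows, had KO replicate 1 and then WT replicate 2 as its highest libraries, as had each of the other copies.

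By a rule, genes with a mean of at least 5 CPM were ranked by Pearson correlation of log2 values with Tcl1 over the 6 libraries. The Tcl1b genes, symbols of the Gm or Rik type and pseudogenes were left out. Among the 8482 genes that remained, 5 were closest in pattern. They were Vps50 (r = 0.98), a subunit of an endosomal recycling complex, Mis18a (0.96), which helps load the centromeric histone, Sspn (0.95), a membrane protein of the dystrophin complex, Acy3 (0.94), an aminoacylase, and Dguok (0.94), the mitochondrial deoxyguanosine kinase. Vps50 had 389, 431 and 476 normalized read counts in WT and 425, 444 and 439 in KO. As in Tcl1, WT replicates 1 and 3 were its lowest and highest libraries. With 6 libraries and so many genes, such values describe these libraries only.

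Genes around the cluster were compared in the same fit. Within 500 kb of either end, 16 other genes had a row, 11 of them were tested, and 1 rose and 1 fell in KO, where 3.28% of all tested genes were called. Of the 11, 3 had an unadjusted p under 0.05 in limma, against 18% of all tested genes. The 11 neighbours had a median log2 fold change of -0.18 against -0.01 over all tested genes. Dicer1, the ribonuclease that makes microRNAs and the small interfering RNAs of mouse oocytes, lies at 104687742 to 104751952. It had normalized read counts of 2211, 2302 and 2267 in WT and 1586, 1713 and 1833 in KO. All KO libraries were below all WT libraries, and its log2 fold change was -0.40 (limma, SE 0.10, adjusted p = 0.0389). That call was lost without any of the 3 WT libraries (adjusted p = 0.107, 0.138 and 0.131 without WT replicates 1, 2 and 3) or without KO replicate 2 (0.108), and when values were scaled to library totals (0.0656).

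On the other side, Atg2b, a lipid transfer protein of autophagosome growth (105616136 to 105685211), rose. It had normalized read counts of 22.2, 26.0 and 17.5 in WT and 39.9, 58.1 and 49.5 in KO, without overlap. Its log2 fold change was 1.13 (limma, SE 0.29, adjusted p = 0.0429). The call was lost when WT replicate 1, 2 or 3 was left out (limma adjusted p = 0.0907, 0.0747 and 0.156), and likewise for KO replicate 2 or 3 (0.141 and 0.0982). Atg2b overlaps the start of Gskip on the other strand, and the library kit keeps no strand, so reads there cannot be told apart. The nearest tested gene with high counts, Glrx5, a mitochondrial iron-sulphur cluster protein, had 3978 ± 222 in WT against 3428 ± 351 in KO (n = 3 each, SD; limma adjusted p = 0.289).

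The AKT kinases given here, partners of TCL1 proteins, had lower counts than each of the cluster genes. Akt1 had normalized read counts of 164, 157 and 129 in WT and 137, 117 and 110 in KO, overlapping between groups. Its log2 fold change was -0.31 (limma, SE 0.17, adjusted p = 0.366). Akt2 had 26.6, 45.6 and 29.5 in WT and 72.5, 41.2 and 54.0 in KO, with a log2 fold change of 0.71 (SE 0.29, adjusted p = 0.205). These groups overlapped as well, and neither kinase passed the test.

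Of 35 listed genes for AKT, its activation, its inhibition, its targets and other TCL1 partners, 34 were tested, 1 rose and 1 fell, against 3.28% called over all genes. An unadjusted p under 0.05 was found in 13 of the 34, against 18% of all tested genes. Their median log2 fold change was 0.11, with 22 genes above 0 and 12 below, against a median of -0.01 over all tested genes. By role as listed, 1 of 10 genes under activation of AKT, 0 of 5 tested genes under its inhibition and 1 of 13 targets passed the test. Their median log2 fold changes were -0.10, 0.22 and 0.10 in the same order. Pik3r1, the p85alpha regulatory subunit of PI 3-kinase, was the gene that fell. It had 742, 638 and 626 normalized read counts in WT and 346, 457 and 428 in KO. All KO libraries were below all WT libraries, and its log2 fold change was -0.71 (limma, SE 0.13, adjusted p = 0.0102; 0.0512 without WT replicate 1). A gene model, Gm36638, lies within it on the same strand.

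The gene that rose was Pde3a, the phosphodiesterase that lowers cyclic AMP when oocytes resume meiosis and a known target of AKT. It had 363, 370 and 380 normalized read counts in WT and 605, 566 and 462 in KO. The groups did not overlap, and the log2 fold change was 0.54 (limma, SE 0.13, adjusted p = 0.0304). The adjusted p was 0.101, 0.102 and 0.104 without WT replicates 1, 2 and 3 and 0.105 without KO replicate 2. Pde3a overlaps the gene model Gm28523 on the other strand.

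**Figure D5:**
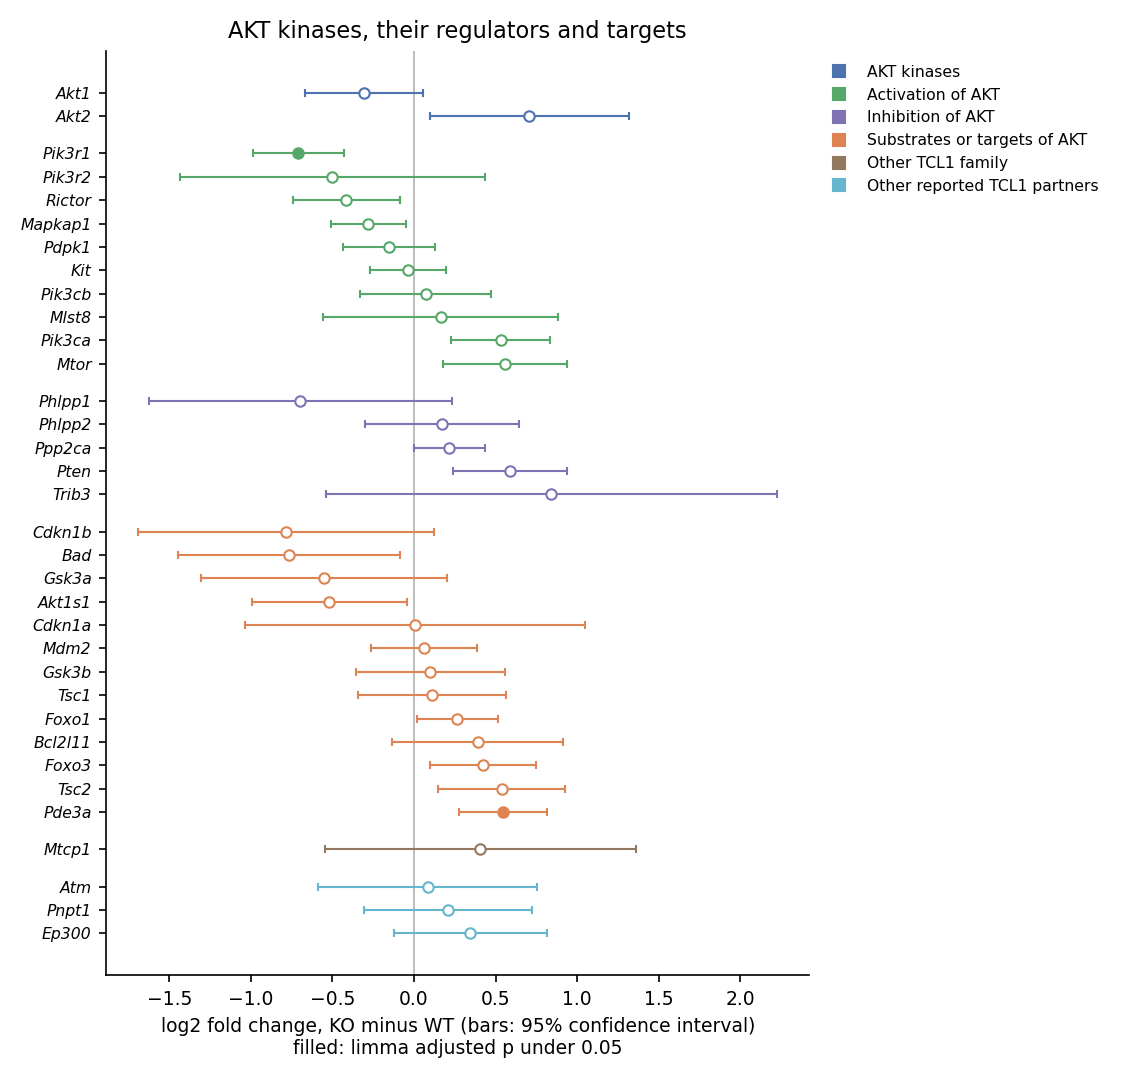
Log2 fold change of KO minus WT with its 95% confidence interval for the 34 tested genes of the AKT list, coloured by role and ordered by value within each role; filled circles passed the limma test. Pik3r1 at -0.71 and Pde3a at 0.54 are the filled circles.

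Among the other named genes, Mtcp1, the remaining member of the TCL1 family, on the X chromosome, had 7.28 ± 2.29 normalized read counts in WT against 9.72 ± 1.41 in KO (n = 3 each, SD; limma adjusted p = 0.70). Its values rest on 5 to 10 reads. Pnpt1, a mitochondrial polynucleotide phosphorylase reported to bind human TCL1, had 75.5 ± 25.9 in WT and 83.9 ± 6.78 in KO (adjusted p = 0.718). Its log2 fold change of 0.21 (SE 0.24) was -0.08 without WT replicate 2.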

How the data were processed

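RNA was measured in 3 WT and 3 KO libraries of 5 pooled GV oocytes each, grouped by the sample titles. Smart-Seq2 cDNA and Nextera XT libraries were made, per the labels' protocols, and these keep no strand and no molecular identifiers. The submitters' processing notes name STAR, cutadapt, FastQC, DESeq2 and DESeq, with mm10 and GRCm38 as builds. For tool versions and annotation, the sources used here give nothing. In the deposited table are normalized read counts per gene, a signal in which reads were divided by a size factor, and per the file headers it came from DESeq2 in Partek. Every value above 0 was a whole multiple of 1 read within 0.1 reads (100% of values), so whole reads were recovered. The 18762 genes that reached 1 in 3 or more libraries were compared as log2(value + 1) with limma-trend (limma 3.58.1, R 4.3.3), adjusted by the Benjamini-Hochberg method over all genes at 0.05. Fold changes on this scale understate the change of low genes. EdgeR 4.0.16 (TMM, quasi-likelihood) and DESeq2 1.42.0 were run on the recovered reads as alternatives, beside other pseudocounts, scalings and filters, a replicate block, and each library left out. The earlier plan named edgeR for raw counts and limma for normalized values.

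Positions are the deposited starts, and the deposited ends minus 1, which equalled GENCODE M21 for 94.0% of matched genes. Symbols matched for 95.5% of genes. The fits were also run on simulated counts with known changes, drawn with the same relative spread for every gene. That run does not measure error rates in these data. The members and lists were chosen with earlier results of these data known. Named were the 6 members, Mfn1, Mfn2, Akt1, Akt2, Mtcp1, Pnpt1, other AKT-list and neighbouring genes past the threshold, and the 5 genes closest to Tcl1 in pattern. Glrx5, the genes that overlap a named gene, and the markers were named after their values were seen. An item of the AKT list and an immune marker are not reported here and were left out of their counts.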

Additional observations from a re-analysis of the deposited data

How the results depend on the processing

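Over 16 alternatives, 96 of 96 values of the 6 genes stayed on the same side of the threshold, with no gene called. Signs near 0 changed. Tcl1 was at -0.0030 in edgeR and -0.0015 in DESeq2, and Tcl1b3 at 0.036 when scaled to library totals and 0.021 after removal of GC and length trends. Leaving out 1 library at a time gave log2 fold changes of -0.072 to 0.070 for Tcl1, -0.014 to 0.12 for Tcl1b1, -0.063 to 0.17 for Tcl1b2, -0.16 to 0.049 for Tcl1b3, -0.11 to 0.075 for Tcl1b4, 1.4e-05 to 0.14 for Tcl1b5 and -0.079 to 0.44 for Pnpt1.

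The number of genes called, 615, ran from 112 without WT replicate 3 to 889 without KO replicate 1. It was 262 and 189 when WT replicate 1 or 2 was left out, and 321 and 379 for KO replicate 2 or 3. The AKT list had 2 calls, and 4 in edgeR, in DESeq2, when scaled to library totals and with at least 5 CPM in 3 libraries. It had 0 to 4 with 1 library left out. The neighbours had 2 calls, 1 when scaled to library totals, and 0 to 2 with 1 library left out. With the replicate number as a block, the AKT list had 1 call (Pde3a had a limma adjusted p of 0.0523), the neighbours 0 and all genes 421. Deviations of same-numbered libraries from their group means correlated at -0.08, -0.02 and -0.04. With 3 libraries a group, these values cannot show whether same-numbered libraries were collected or prepared together. Why the counts moved was not tested. The 95% intervals of the KO to WT ratio, 0.852 to 1.18 for Tcl1 and 0.890 to 1.27 for Tcl1b2, give the precision that 3 libraries a group allowed.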

Other observations

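Of markers of lymphoid and other immune cells, 11 were listed, of which Ptprc, Cd79a and Cd3g have no row in the table used here. Ms4a1, the gene of the B-cell surface protein CD20, had 810 to 1179 reads per library, or 125 to 148 CPM, and made up most of the summed immune markers in each of the 6 libraries. Cd4 had 9 to 17 reads, Lyz2 0 to 22, Csf1r 0 to 10 and Cd8a 0 to 3, and Cd79b, Cd3e and Adgre1 had at most 1. Of the 10 granulosa markers, Cyp19a1, the aromatase gene, had 288 to 482 reads, Nr5a2 132 to 190, Inha 27 to 154, Kitl 26 to 43 and Cyp11a1 3 to 545. The highest values of Inha and Cyp11a1 were those of WT replicate 1. Fshr had 5 to 23, Inhba 2 to 21 and Fst 1 to 8, and Foxl2 and Amh had at most 3. Of the endothelial markers, Pecam1 had 131 to 237 reads, Tek 26 to 52 and Kdr 2 to 11, and Cdh5 had at most 1.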
